A study of Mus musculus with 10 samples.

Results

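Genes that make sterols and fatty acids, sense sterols and export cholesterol were measured in mouse kidney cells selected on beads that bind F4/80, the macrophage marker encoded by Adgre1. The set holds 34 genes, chosen by name for their roles, of 24541 gene symbols in the deposited table. All 34 passed the filter on low counts, as did 15123 symbols in all, and the lowest estimated count of any of the 34 in any library was 264. They divide into 18 enzymes of the sterol branch, 6 enzymes of the fatty acid branch, 5 genes of the SREBP system, the sterol carrier Stard4, 2 LXR receptors and 2 exporters.

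The mice were 4 heterozygotes for a C105F substitution in uromodulin, placed in the endogenous Umod gene of C57BL/6J embryos by Cas9 editing, and 6 wild-type littermates. Both groups were on the C57BL/6 background, were killed at an age between 12 and 16 weeks, and received no other treatment in the labels. Uromodulin is made mainly by tubule cells of the thick ascending limb. The study asked whether macrophage gene expression differs in mutant mice.

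Cholesterol is built from acetyl-CoA through mevalonate, squalene and lanosterol. When the endoplasmic reticulum runs short of sterol, the chaperone SCAP carries the SREBP factors to the Golgi, where they are cut and released to switch on these enzymes; INSIG proteins hold SCAP back when sterol is plentiful. LXR receptors sense oxidised sterols, switch on the exporters of cholesterol, and are known in macrophages for their part in handling engulfed lipid.

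Library totals ran from 45380415 to 73643200 estimated counts. The selections held much tubule RNA: 14 proximal tubule markers summed to between 44176 and 104999 CPM (counts relative to library size, scaled by TMM), and 15 macrophage markers to between 351 and 10344 CPM. Every marker in both lists was detected. The level of Adgre1 was lowest in wild-type replicate 1, at 14.0 CPM, and highest in mutant replicate 5, at 819 CPM, so the libraries were of mixed cells and differed widely in macrophage RNA. The 12 ascending limb and distal tubule markers, which include Umod, summed to 3577 to 10313 CPM in mutants and 11866 to 25489 CPM in wild type, without overlap. Umod made up much of that sum, at 1004 to 4331 CPM in mutants and 5784 to 15138 CPM in wild type. A score that weights the 12 markers equally is the mean of their centred log2 CPM. It ran from -1.08 to 0.30 in mutants and from -0.07 to 0.53 in wild type and so overlapped. Its lowest values, -1.02 and -1.08, were in mutant replicates 4 and 5, so as a covariate it is partly confounded with genotype. Of the 12 markers, 1 was called lower. Umod itself differed by -2.03 on the log2 scale (SE 0.445, edgeR adjusted p = 0.184), which is no check of the genotype, since the allele changes 1 amino acid and deletes nothing. In bulk RNA, fewer cells of a type and less RNA per cell cannot be told apart. Xist was listed at 0 and the Y-linked Ddx3y lay between 41.6 and 59.5 CPM in all 10 libraries.

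Promoter sequences are shown for 6 genes. Cyp51 was the sterol enzyme with separate groups, and Hmgcs1 and Idi1 were mevalonate enzymes that fell with the macrophage score. Abca1, Srebf1 and Fasn are shown because they share 1 motif, and neither Srebf1 nor Fasn was called in the edgeR tests below. RefSeq windows on GRCm38.p6 from 250 bases before to 50 bases after a gene's start were found for 26 of the 34 genes. The windows were searched on both strands for CCAAT, the box bound by NF-Y, a frequent partner of SREBP, for TCACNCCAC, the core of a sterol regulatory element, and for GGTNAC followed after 4 bases by GGTCA, a spaced repeat of the kind LXR binds. The last form was written with the known Abca1 element in mind, so its match there carries no information. Matches are in capitals, each sequence reads 5′ to 3′ on the gene's own strand, and the only overlap is a pair of CCAAT matches on opposite strands in Fasn. The windows are chr5:4104648-4104947 on the minus strand for Cyp51, chr13:119690101-119690400 on the plus strand for Hmgcs1, chr13:8885356-8885655 on the plus strand for Idi1, chr4:53159846-53160145 on the minus strand for Abca1, chr11:60210422-60210721 on the minus strand for Srebf1 and chr11:120824498-120824797 on the minus strand for Fasn.
Cyp51: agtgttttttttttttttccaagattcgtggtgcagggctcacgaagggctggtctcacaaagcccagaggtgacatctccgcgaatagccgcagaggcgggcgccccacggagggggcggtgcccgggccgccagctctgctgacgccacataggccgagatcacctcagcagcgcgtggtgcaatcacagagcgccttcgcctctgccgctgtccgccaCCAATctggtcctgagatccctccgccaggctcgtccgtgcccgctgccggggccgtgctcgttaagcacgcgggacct
Hmgcs1: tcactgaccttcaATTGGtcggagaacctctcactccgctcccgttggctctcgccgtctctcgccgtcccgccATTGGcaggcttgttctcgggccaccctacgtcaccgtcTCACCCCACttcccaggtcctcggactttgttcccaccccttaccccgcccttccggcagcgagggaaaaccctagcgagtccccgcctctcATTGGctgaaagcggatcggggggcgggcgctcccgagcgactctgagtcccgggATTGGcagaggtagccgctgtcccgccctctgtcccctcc
Idi1: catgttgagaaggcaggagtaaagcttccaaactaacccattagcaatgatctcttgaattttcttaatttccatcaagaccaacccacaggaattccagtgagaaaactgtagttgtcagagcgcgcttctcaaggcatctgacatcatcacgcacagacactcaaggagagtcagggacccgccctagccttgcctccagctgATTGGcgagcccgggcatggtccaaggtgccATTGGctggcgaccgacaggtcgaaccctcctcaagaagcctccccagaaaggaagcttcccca
Abca1: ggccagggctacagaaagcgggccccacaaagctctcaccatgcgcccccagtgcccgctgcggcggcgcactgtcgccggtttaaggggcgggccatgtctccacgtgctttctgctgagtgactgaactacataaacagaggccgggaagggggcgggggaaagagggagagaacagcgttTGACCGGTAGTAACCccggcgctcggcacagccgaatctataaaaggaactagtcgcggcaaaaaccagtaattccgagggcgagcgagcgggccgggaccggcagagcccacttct
Srebf1: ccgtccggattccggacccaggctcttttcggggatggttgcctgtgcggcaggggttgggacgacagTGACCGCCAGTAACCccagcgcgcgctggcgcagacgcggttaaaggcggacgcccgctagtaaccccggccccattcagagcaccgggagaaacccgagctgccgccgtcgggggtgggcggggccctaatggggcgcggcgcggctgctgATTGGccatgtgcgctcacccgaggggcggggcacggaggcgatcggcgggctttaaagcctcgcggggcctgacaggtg
Fasn: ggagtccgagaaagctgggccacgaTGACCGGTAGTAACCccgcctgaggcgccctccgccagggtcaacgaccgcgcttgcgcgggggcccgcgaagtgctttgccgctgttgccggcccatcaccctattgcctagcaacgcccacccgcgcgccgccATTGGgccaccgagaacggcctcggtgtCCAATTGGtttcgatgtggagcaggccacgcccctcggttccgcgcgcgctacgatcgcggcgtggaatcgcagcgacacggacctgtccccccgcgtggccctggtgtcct

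A CCAAT box was present in the windows of 14 of 15 sterol branch genes with a sequence, against 41.1% of 27025 genes with such windows, and in 1 of 3 fatty acid branch genes. Acat2 was the sterol gene without it. For each motif a gene counted if any of its windows held a match. The shares of all genes are over every gene with a window, not only those tested for expression here. The sterol element core was found in Hmgcs1 alone among the 26 genes, against 1.44% of all genes. The LXR form was found in Abca1, Srebf1 and Fasn, against 0.0888% of all genes. The Srebf1 window that holds it lies inside the gene, and neither deposited Srebf1 transcript starts there. The genes were chosen by name for their roles, so the matches in Srebf1 and Fasn are not independent finds either. Abcg1, Fads1, Fdft1, Fdps, Scd1, Scd2, Sqle and Stard4 had no window in the table. A match is a description of these letters and not evidence of binding.

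Per length of transcript, a mevalonate enzyme stood highest. In the authors' FPKM, summed over a gene's transcripts and averaged over the 10 libraries, Hmgcs1, which makes HMG-CoA, was first of the 34 genes at 126 FPKM, followed by Acat2, which condenses acetyl-CoA, at 64.5 FPKM and Ebp, a sterol isomerase, at 57.8 FPKM. Their ranges over libraries were 95.7 to 153 FPKM for Hmgcs1, 50.3 to 80.2 FPKM for Acat2 and 46.4 to 87.3 FPKM for Ebp, so Acat2 and Ebp overlap and Hmgcs1 stood apart. At the low end were the exporters Abca1 at 3.13 FPKM and Abcg1 at 2.88 FPKM, and Acaca, which makes malonyl-CoA, at 2.07 FPKM, again with overlapping ranges. The other 28 genes averaged between 3.36 and 49.9 FPKM. Variation between libraries also differed by gene. Scap spanned 1.20-fold from its lowest to its highest library in FPKM, while the desaturase Scd1 spanned 8.24-fold and Abcg1 8.63-fold.

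Between genotypes, none of the 34 sterol and fatty acid genes passed the edgeR test. At an adjusted p under 0.05 over all 15123 genes in edgeR's quasi-likelihood test, 0 members were called, beside 0.198% of all genes (0.179% higher and 0.0198% lower), and 2 members, Cyp51 and Stard4, had an unadjusted p under 0.05, beside 5.9% of all genes. Under DESeq2, 1 member was called, beside 0.779% of all genes in that test. The fold changes were small: 28 of 34 lay within 0.25 of 0 on the log2 scale and 31 within 0.5. The 95% interval of the fold change lay within 1 log2 unit of 0 for 30 members, and within 0.5 for 16. Signs were negative for 24 and positive for 10, with a median of -0.10 beside 0.01 over all genes, of which 7379 were negative. With the macrophage score as covariate 13 members were positive (median -0.047 beside -0.018 over all genes). With the ascending limb score 13 were (-0.073 beside -0.064), and with the proximal tubule score 15 were (-0.016 beside 0.0040). Without the highest and the lowest Adgre1 library 15 were (-0.048 beside -0.048).

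**Figure D1:**
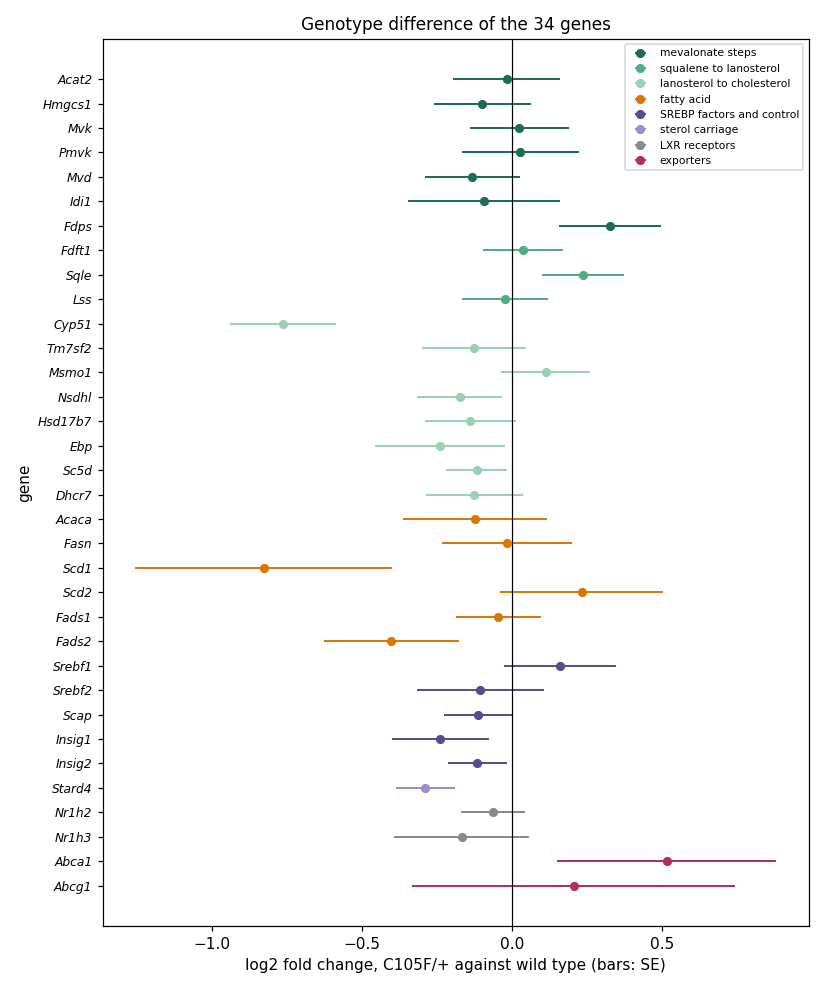
Log2 fold change of each of the 34 genes, mutant against wild type (points), with standard errors (bars), coloured by role. Most points lie within 0.25 of 0, and Cyp51 and Scd1 lie farthest below it at -0.76 and -0.83.

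Cyp51 had the lowest p of the set. It encodes lanosterol demethylase, which carries out the first step from lanosterol towards cholesterol (gene 13121, chromosome 5, 4080674 to 4104697 on mm10). Its level was 128, 99.4, 113 and 99.7 CPM in mutant replicates 1, 2, 4 and 5, and in wild type the lowest, median and highest were 151, 163 and 245 CPM. Every mutant library lay below every wild-type library, and 2 wild-type libraries, replicates 1 and 3, stood well above the other 4. The means were 110 ± 13.5 CPM (SD, n = 4) and 187 ± 43.3 CPM (SD, n = 6), which gave a difference of -0.76 on the log2 scale (SE 0.176, edgeR adjusted p = 0.209). DESeq2 called it at -0.77 (adjusted p = 0.0173), beside 0.384% of genes called lower by that test. With the macrophage score as covariate the value was -0.66 (edgeR adjusted p = 0.123), and with the ascending limb score it was -0.58 (adjusted p = 0.265). Over the 24 alternatives the adjusted p ran from 0.0173 to 0.554, and the sign held in each.

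Stard4, a soluble protein that moves cholesterol between membranes, showed the other complete separation. Mutant replicates 1, 2, 4 and 5 had 64.2, 61.1, 63.4 and 62.2 CPM, while wild type ran from 68.0 through a median of 76.7 to 86.3 CPM. The mutant libraries lay close together and all below the wild-type libraries. The log2 fold change was -0.29 (SE 0.0982, edgeR adjusted p = 0.699), and it stayed negative under the 24 alternatives without passing in any. With the ascending limb score as covariate it was -0.30 (edgeR adjusted p = 0.281). In all, 2 members had all mutant libraries below all wild-type libraries, beside 1.02% of all genes, and 0 had them above, beside 0.946%. The edgeR test over all genes called neither gene. Stard4 lies on chromosome 18, 33199138 to 33213862 on mm10.

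**Figure D2:**
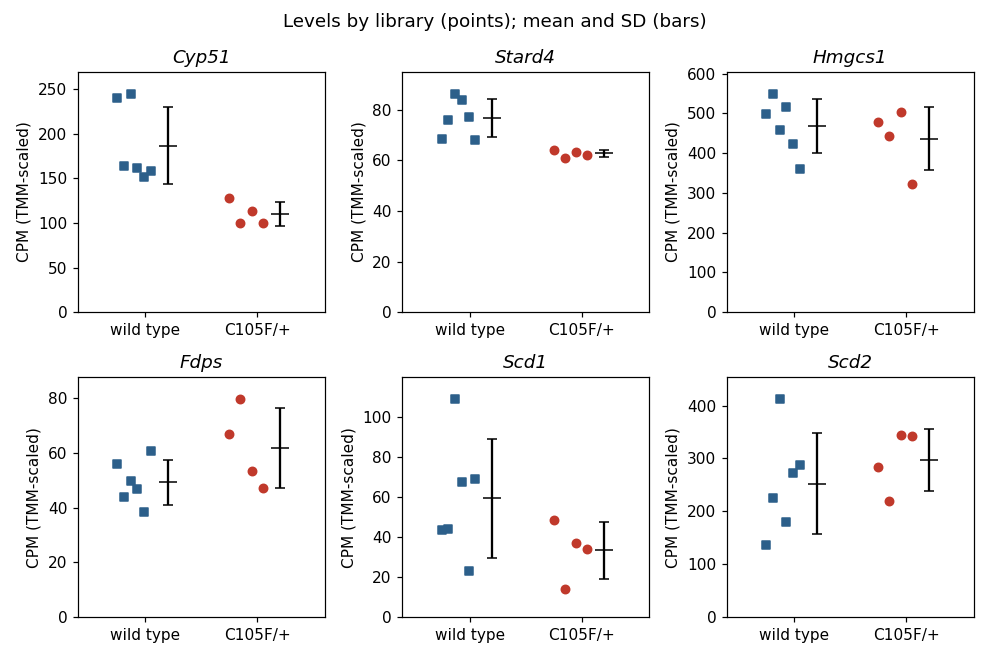
TMM-scaled CPM of 6 genes in each library (points), with the mean and SD of each group (bars) beside them. Cyp51 and Stard4 show no overlap between genotypes, while Hmgcs1, Fdps, Scd1 and Scd2 do overlap.

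No enzyme of the mevalonate steps was called by genotype. Of these 7 enzymes, 4 had negative and 3 positive fold changes, with a median of -0.02. Hmgcs1 had 478, 443, 502 and 323 CPM in mutant replicates 1, 2, 4 and 5, and 360, 478 and 549 CPM as the lowest, median and highest wild-type values. The groups overlapped almost fully, and the log2 fold change was -0.10 (SE 0.163, 95% interval -0.47 to 0.28). Fdps, which makes farnesyl diphosphate, the branch point to sterols and to protein prenylation, had the highest fold change of the 7, with 66.8, 79.5, 53.2 and 47.1 CPM in mutants against 38.3, 48.2 and 60.4 CPM in wild type. Its fold change of 0.33 (SE 0.17, edgeR adjusted p = 0.912) came with mutant replicates 1 and 2 above the wild-type range and the other two within it. Idi1, an isomerase of isopentenyl diphosphate, varied more in mutants, at 120, 206, 112 and 76.6 CPM, than in wild type, at 99.6 to 163 CPM. Acat2, Mvd, Mvk and Pmvk had fold changes between -0.13 and 0.03.

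From squalene to cholesterol no enzyme was called either. Sqle, squalene epoxidase, had a fold change of 0.24 (SE 0.136, edgeR adjusted p = 0.953), with mutant replicate 2 highest at 89.9 CPM and the other mutants at 61.7, 71.1 and 58.3 CPM against 53.8 to 66.6 CPM in wild type. Fdft1, squalene synthase, and Lss, which closes the rings of lanosterol, were at 0.04 and -0.02. Of the 8 enzymes after lanosterol, 7 had negative fold changes, with a median of -0.13. Leaving Cyp51 aside, they lay between -0.24 for Ebp and 0.11 for Msmo1, a methyl sterol oxidase. Nsdhl, Hsd17b7 and Tm7sf2, which remove methyl groups or reduce the sterol, were at -0.17, -0.14 and -0.13. Sc5d, a sterol desaturase, and Dhcr7, the last reductase of one arm of the path, were at -0.12 and -0.13.

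None of the fatty acid genes was called, and the desaturases Scd1 and Scd2 varied most among them, by 8.24-fold and 3.61-fold in FPKM over the libraries. Scd1, which makes oleic acid from stearic acid, had 48.5, 14.4, 37.0 and 33.96 CPM in mutant replicates 1, 2, 4 and 5, against 23.2, 56.0 and 109 CPM as the lowest, median and highest wild-type values. The ranges overlapped, and the fold change of -0.83 had an SE of 0.428 (edgeR adjusted p = 0.912). Its paralog Scd2 had 283, 219, 343 and 342 CPM in mutants and 138, 249.2 and 412 CPM in wild type, with overlapping ranges and a fold change of 0.23 (SE 0.273). Both lie on chromosome 19, and how the authors assigned reads that fit more than 1 gene is not given. Fads2, which starts the desaturation of polyunsaturated fatty acids, was at -0.40 (SE 0.226, edgeR adjusted p = 0.953), and its partner Fads1 at -0.05 (SE 0.142). Fasn, fatty acid synthase, and Acaca were at -0.02 and -0.12. Wild-type replicate 3 had the highest Scd1 and the highest Scd2 of all libraries.

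By genotype the branches had like medians. The median log2 fold change was -0.10 over 18 sterol genes and -0.08 over 6 fatty acid genes, a difference of -0.01, and no test was made over the lists. In each library, the median of the sterol genes, each centred on its own mean log2 CPM, lay between -0.32 and 0.18, and that of the fatty acid genes between -0.55 and 0.48. The sterol median minus the fatty acid median was 0.02, 0.65, -0.23 and -0.49 in mutant replicates 1, 2, 4 and 5. In wild type it ran from -0.30 to 0.40, inside the mutant range, and mutant replicate 2 and wild-type replicate 1 were the libraries with the highest sterol balance. The difference of the median fold changes was 0.24 when the macrophage score entered the model and 0.29 without the highest and the lowest Adgre1 library. It was 0.59 with the ascending limb score, which is partly confounded with genotype.

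**Figure D3:**
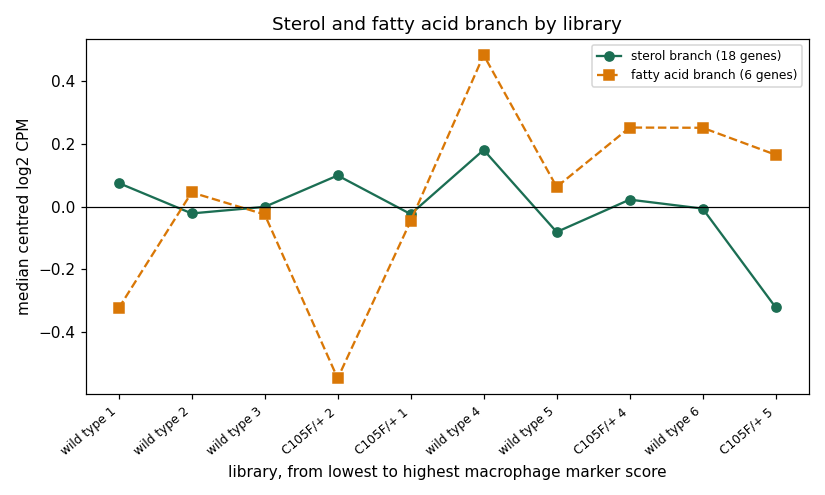
Median centred log2 CPM of the 18 sterol genes (circles) and of the 6 fatty acid genes (squares) in each library, ordered by the macrophage marker score. The fatty acid median is lowest in mutant replicate 2 at -0.55 and wild-type replicate 1 at -0.32, and the sterol median is lowest in mutant replicate 5 at -0.32.

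None of the SREBP control genes was called by genotype. The factor genes Srebf1, mainly tied to fatty acid synthesis, and Srebf2, mainly tied to sterol synthesis, had fold changes of 0.16 (SE 0.185) and -0.11 (SE 0.212). Insig1, itself switched on by SREBP and a sensitive readout of it, had 65.6, 52.9, 65.3 and 63.1 CPM in mutants and 50.1, 76.3 and 92.3 CPM in wild type, with overlapping groups and a fold change of -0.24 (SE 0.162, edgeR adjusted p = 0.959). Insig2 and Scap, the escort of SREBP, were at -0.12 and -0.11, with SE of 0.0982 and 0.113. Of the Srebf1 counts, 86.7% were assigned to transcript variant 1.

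LXR receptors and exporters were not called by genotype either. Nr1h2, which encodes LXR beta and is expressed in most tissues, was at -0.06 (SE 0.107), and Nr1h3, which encodes LXR alpha of macrophages, liver and kidney, at -0.17 (SE 0.224). Abca1, which loads cholesterol onto apolipoprotein A-I, had 21.9, 20.6, 40.0 and 72.7 CPM in mutant replicates 1, 2, 4 and 5, against 19.3, 25.1 and 43.0 CPM in wild type. Replicates 1 and 2 sat at the wild-type low end and replicate 5 alone lay beyond the wild-type range. Its fold change was 0.52 (SE 0.365, edgeR adjusted p = 0.959), and 0.02 without mutant replicate 5. Entering the macrophage score in the model gave 0.02, and entering the ascending limb score, which is partly confounded with genotype, gave -0.53. Abcg1, which passes cholesterol to high-density lipoprotein, was at 0.21 (SE 0.538), -0.15 without mutant replicate 5, and -0.21 and -0.91 with the macrophage and ascending limb scores as covariates.

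Other genes of the pathway were likewise not called by genotype in edgeR. Of 13 further genes of sterol synthesis and SREBP processing, 0 passed, and the smallest p belonged to Erlin2, an endoplasmic reticulum protein that aids the turnover of sterol enzymes, at -0.28 (edgeR adjusted p = 0.761). Of 17 further genes of fatty acid and glyceride synthesis, 0 passed. Gpam, which starts glycerolipid synthesis in mitochondria, came nearest at -0.76 (SE 0.179, adjusted p = 0.231), with mutants at 26.5, 26.3, 34.8 and 22.7 CPM, all below the wild-type range of 35.3 to 61.2 CPM. Acacb and Mid1ip1, both of the malonyl-CoA step, were at -0.50 and 0.30. Of 17 further genes of LXR action and sterol handling, 15 passed the filter and 0 the test, with Nceh1, a cholesteryl ester hydrolase, Npc2, a lysosomal sterol carrier, and Pltp, a phospholipid transfer protein, at -0.25, 0.38 and 1.12.

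The exporters rose in libraries with more macrophage RNA, and 4 of 18 sterol enzymes fell, beside 16.1% of all genes. A score per library, the mean centred log2 CPM of the 15 macrophage markers, ran from -2.10 in wild-type replicate 1 to 2.60 in mutant replicate 5, and edgeR tested the slope of each gene on it with genotype in the model. Of the 34 genes, 5 rose with the score (19.6% of all genes did) and 5 fell (16.1% did), so the share that moved, 10 of 34, was near that of all genes, 35.7%. The genes that rose were Abcg1, Abca1, Srebf2, Fads1 and Dhcr7, and those that fell were Idi1, Nr1h3, Ebp, Acat2 and Hmgcs1. In the wild-type libraries alone 0 of the 34 were called lower, and likewise 0 without the highest and the lowest Adgre1 library. Along the score, 4 of 12 ascending limb and distal markers, 2 of 14 proximal tubule markers and 1 of 8 collecting duct markers fell. The share over all genes was 16.1%, and none of these markers rose. The part of other cell types in these slopes was not tested. In wild type the score rose with the replicate number, at -2.10, -1.56, -0.81, -0.16, 0.67 and 1.79 in replicates 1, 2, 3, 4, 5 and 6. In mutants it was -0.68, -0.69, 0.94 and 2.60 in replicates 1, 2, 4 and 5. What the numbers stand for is not in the labels, and its part in the slopes was not tested.

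**Figure D4:**
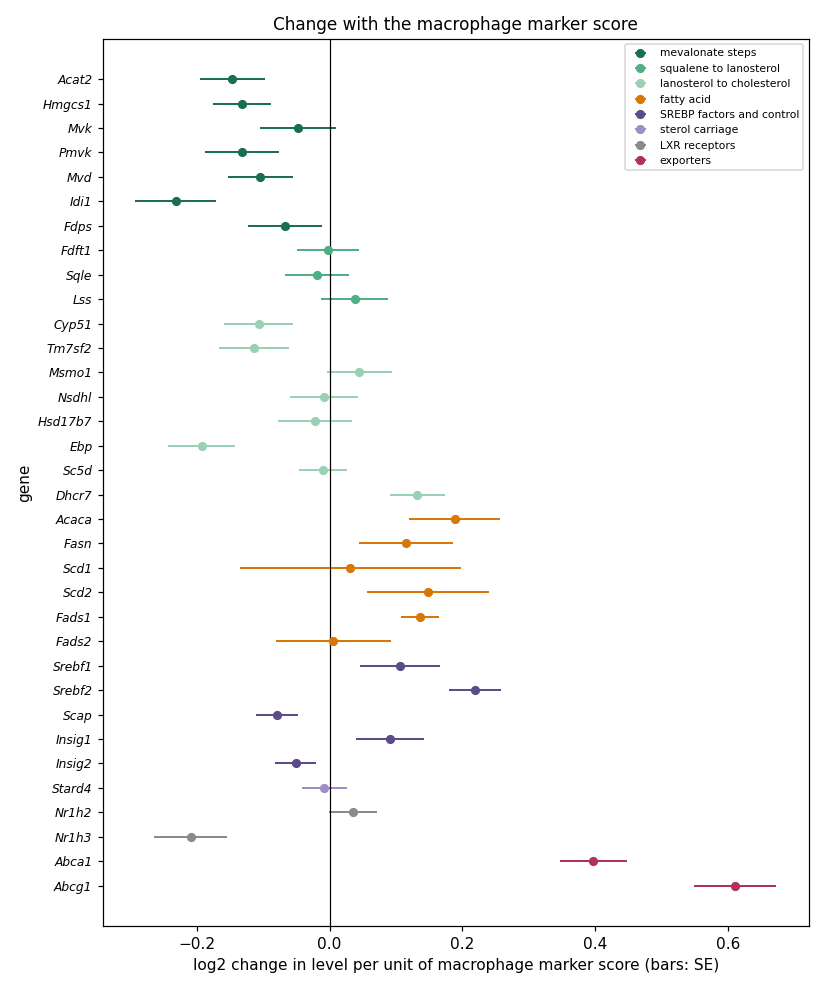
Change in log2 level per unit of the macrophage marker score for each of the 34 genes (points), with standard errors (bars), from the fit with genotype. The exporters Abcg1 and Abca1 lie farthest right at 0.61 and 0.40, and Idi1 and Nr1h3 farthest left at -0.23 and -0.21.

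Of the 34 genes, the exporters rose most steeply with the macrophage score. Abcg1 rose by 0.61 log2 units per unit of score (SE 0.0623, edgeR adjusted p = 2.13e-05), from 5.03 CPM in wild-type replicate 1, the lowest score, to 33.8 and 29.5 CPM in wild-type replicate 6 and mutant replicate 5, the highest scores. Abca1 rose by 0.40 (SE 0.0504, adjusted p = 0.000135), from 19.8 CPM to 43.0 and 72.7 CPM in the same libraries. The pair passed in all 18 alternatives, among them the 6 wild-type libraries alone. Of the further LXR and sterol handling genes, 6 of 15 rose with the score and 1 fell, beside 19.6% and 16.1% of all genes. Pltp, an LXR target, rose by 0.76 (adjusted p = 3.58e-06), and Lpl, lipoprotein lipase, fell by 0.17 on the log2 scale (adjusted p = 0.0131).

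The gene of LXR alpha, Nr1h3, fell by 0.21 log2 units per unit of score (SE 0.0551, edgeR adjusted p = 0.0123). It stood at 46.1 CPM and 45.9 CPM in wild-type replicates 1 and 2, which had the lowest scores, and at 23.9 and 22.4 CPM in wild-type replicate 6 and mutant replicate 5. In the 6 wild-type libraries alone the slope was -0.22 (adjusted p = 0.0939), which did not pass, and it was -0.19 (adjusted p = 0.0724) without mutant replicate 5 and -0.18 (adjusted p = 0.0689) without wild-type replicate 6. Nr1h2 had a slope of 0.03 (SE 0.036, adjusted p = 0.483). Over the libraries, transcript variant 2 held 89.6% of Nr1h3 counts.

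**Figure D5:**
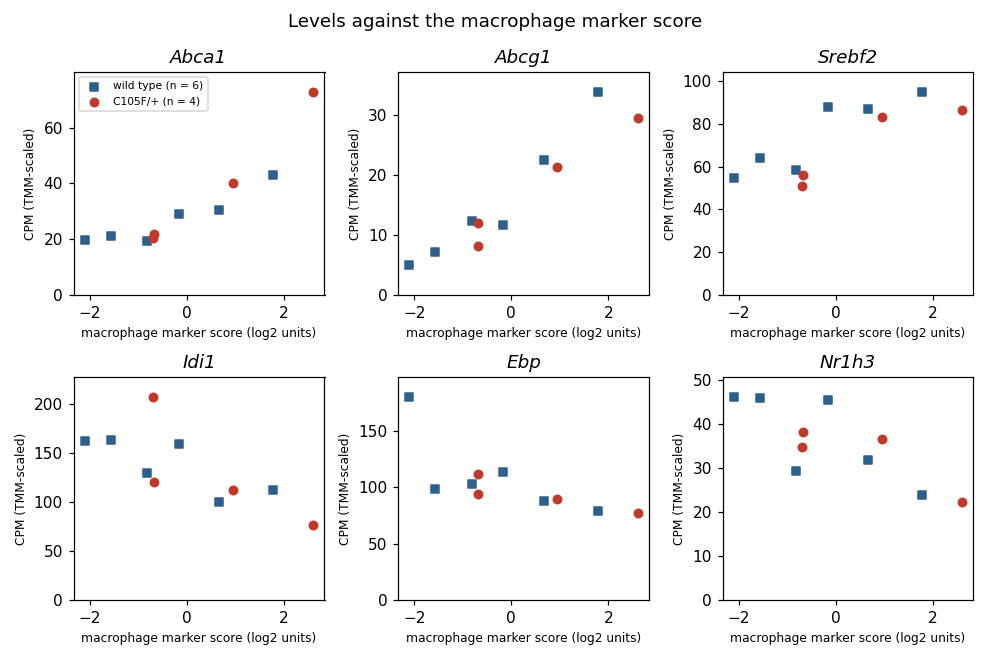
TMM-scaled CPM of 6 genes against the macrophage marker score, each point 1 library. Abca1, Abcg1 and Srebf2 are higher in libraries of high score, and Idi1, Ebp and Nr1h3 are lower.

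Along the same score the sterol and fatty acid branches had slopes of mostly opposite sign. Slopes were negative for 15 of 18 sterol genes (median -0.06) and positive for 6 of 6 fatty acid genes (median 0.13), beside a median of 0.01 over all genes, and no test was made over the lists. The sterol count was 9 of 18 when libraries were scaled by their totals alone, 8 of 18 in the wild-type libraries alone and 9 of 18 without mutant replicate 5, while the fatty acid count was 6 of 6 in each of these. The fatty acid count was 4 of 6 without mutant replicate 2, without wild-type replicate 1 and with the score alone in the model. All 7 mevalonate enzymes had negative slopes, as did 7283 of all 15123 genes, and 3 passed, beside 16.1% of all genes. Idi1 fell by 0.23 log2 units per unit of score (SE 0.0608, edgeR adjusted p = 0.012), Acat2 by 0.15 (adjusted p = 0.0352) and Hmgcs1 by 0.13 (adjusted p = 0.0349). Without mutant replicate 5 none of these 3 passed, with values of -0.19, -0.12 and -0.10 in the same order. In wild type alone none of them passed either (-0.16, -0.14 and -0.13), nor without both Adgre1 extremes (-0.21, -0.13 and -0.12). Acat2 and Hmgcs1 also lost their call with library totals as the scaling, at -0.09 and -0.07, and without any one of wild-type replicates 2, 5 and 6. Leaving out mutant replicate 2 ended the call of Acat2 (-0.13) and leaving out mutant replicate 1 that of Hmgcs1 (-0.13).

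After lanosterol, Ebp fell by 0.19 (SE 0.0507, edgeR adjusted p = 0.0123) and Dhcr7 rose by 0.13 (SE 0.0414, adjusted p = 0.0277). Ebp stood at 179 CPM in wild-type replicate 1, far above the other libraries, and kept its call without that library at -0.12 (adjusted p = 0.0464), a value over 1.5 times smaller. In the wild-type libraries alone Ebp did not pass (-0.23, edgeR adjusted p = 0.0691), nor did it without the highest and the lowest Adgre1 library (-0.12, adjusted p = 0.204). Dhcr7 lost its call without mutant replicate 1 (0.12), wild-type replicate 1 (0.12) or wild-type replicate 6 (0.10). It also lost it with the score alone in the model (0.11), in wild type alone (0.15) and without both Adgre1 extremes (0.13). Among fatty acid genes Fads1 was the called one, with a rise of 0.14 (SE 0.0286, adjusted p = 0.00367), from 93.4 CPM in wild-type replicate 1 to 133 and 122 CPM in wild-type replicate 6 and mutant replicate 5. In wild type alone its slope of 0.15 did not pass (edgeR adjusted p = 0.0659). Acaca had a steeper slope of 0.19 with a wider error (SE 0.0687, adjusted p = 0.0507). Srebf2 rose by 0.22 (SE 0.0394, adjusted p = 0.00148) and passed in all 18 alternatives, while Srebf1 had a slope of 0.11 (SE 0.0601, adjusted p = 0.192). Cyp51 and Stard4, the genes whose genotypes did not overlap, had slopes of -0.11 (adjusted p = 0.131) and -0.01 (adjusted p = 0.884).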

How the data were processed

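Estimated read counts and FPKM per RefSeq transcript (36779 of them) were deposited by the authors for every library. Tools named in the submitters' processing notes are Trimmomatic 0.38, HISAT2 2.1.0, StringTie 1.3.4d, Bowtie2 2.3.4.1 and DESeq2, and the build is mm10; their roles are not stated there. The estimated counts deposited are whole numbers and carry no depth scaling. The FPKM deposited by the authors are scaled for length and depth and hold the same information: for 100% of values of at least 20 counts, FPKM multiplied by length and by a library constant gave the count to within 1 read or 0.5%. Per the labels' protocols, poly(A) RNA was made into directional libraries. Each library is from its own mouse, and no pair within a genotype looked like a library deposited again (chi-square per gene at least 72.2). Pairs across genotypes were not compared.

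Transcript counts were added up by gene symbol and passed through filterByExpr and TMM scaling. Genotypes were then compared by edgeR 4.0.16 (R 4.3.3), using its robust quasi-likelihood test without covariates, and p-values were adjusted by Benjamini-Hochberg over all 15123 genes tested. Each SE is the fold change divided by the root of its F statistic, and 95% intervals use the residual degrees of freedom of the 10 libraries. CPM is on the TMM scale; for log2 CPM the prior count was 2. A second edgeR model held genotype and the macrophage score and tested the slope on the score. Both were also run on simulated counts. The effects set there were larger than most of those of the members, so that run does not gauge power for small differences. Alternatives used other scalings, filters, DESeq2 1.42.0, limma 3.58.1, covariates, a replicate block, single transcripts and left-out libraries. The members, gene lists and tests were chosen with earlier results of these data known. Named in full were the members of smallest p in each role, those called or with separate groups, and 3 genes of each further list, of which 2 are not reported here. Promoter windows come from RefSeq (GRCm38.p6). Figures were drawn with matplotlib 3.10.9.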

Additional observations from a re-analysis of the deposited data

Results flagged for a closer look

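Of 68 groups of 4 or 6 libraries (34 genes in 2 genotypes), 1 had a library that stood apart from its group by Dixon's criterion, and chance gives about 1 in 20. Ebp reached 179 CPM in wild-type replicate 1, with the next wild-type library at 114 CPM and the lowest at 79.1 CPM. That library also had the lowest macrophage score, and the part of this in the Ebp value was not tested.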

How the results depend on the processing

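Genotype calls among the 34 genes were 0 higher under every setting, and 1 lower under DESeq2 and under the replicate block, Cyp51 in both. Over all genes, 27 higher and 3 lower became 69 and 67 with DESeq2, 193 and 24 with the replicate block over 8 libraries, 10 and 0 without the highest and the lowest Adgre1 library (chosen after seeing the data), and 14 to 23 and 0 to 3 without single libraries. Higher calls were 52 with the ascending limb covariate, 15 for single transcripts and 21 without the block on the same 8 libraries. Lower calls were 0 without the block on the same 8 libraries, 14, 1 and 5 with the macrophage, proximal tubule and ascending limb covariates. Same-numbered mutant and wild-type libraries had correlations of 0.43, 0.28, 0.02 and 0.44, and 1 of 4 matched its own number best. These compare deviations from group means over all genes tested, of which 35.7% moved with the macrophage score. The match therefore cannot decide whether the numbers pair the mice, and what they stand for is not in the labels. With the block Cyp51 was at -0.69 (edgeR adjusted p = 0.0404) and without it at -0.70 (0.396).

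The sterol minus fatty acid difference was -0.15 to 0.24 without single libraries, 0.29 without both Adgre1 extremes, and 0.24, 0.14 and 0.59 with the macrophage, proximal tubule and ascending limb covariates. Slope calls among the 34 genes were 2 lower with library totals, 3 higher and 0 lower in wild type alone, 0 lower without both Adgre1 extremes, and 4 to 6 higher and 1 to 5 lower without single libraries (1 without mutant replicate 5). Over all genes, 2962 higher and 2431 lower became 1173 lower with library totals, 1150 and 488 in wild type alone, 1046 and 300 without both extremes, and 1886 to 3060 and 1413 to 2540 without single libraries; the lowest of each came without mutant replicate 5. No member's called slope turned sign.

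Of the 34 fold changes, none called, 14 kept their sign in all 24 alternatives. With the macrophage covariate, Acat2 turned to 0.11, Hmgcs1 to 0.021, Idi1 to 0.070, Nr1h3 to 0.027 and Abcg1 to -0.21. With the proximal tubule covariate, Acat2 turned to 0.13, Hmgcs1 to 0.012, Mvd to 0.0040, Idi1 to 0.023, Tm7sf2 to 0.021, Nr1h3 to 0.046 and Abcg1 to -0.061. With the ascending limb covariate, Acat2 turned to 0.14, Hmgcs1 to 0.0094, Idi1 to 0.41, Tm7sf2 to 0.074, Ebp to 0.043, Scd2 to -0.036, Srebf1 to -0.18, Insig2 to 0.011, Nr1h3 to 0.014, Abca1 to -0.53 and Abcg1 to -0.91. Without both Adgre1 extremes, Acat2 turned to 0.12, Hmgcs1 to 0.024, Mvd to 0.0055, Idi1 to 0.13, Tm7sf2 to 0.029, Ebp to 0.019, Nr1h3 to 0.035, Abca1 to -0.075 and Abcg1 to -0.36. Mvk was at -0.012 with limma-voom and -0.25 for single transcripts, and Pmvk at -0.0024 for those. On the 8 libraries, Lss was at 0.041 with the block and 0.040 without, and Fads1 at 0.021 and 0.020. Without single libraries the ranges were -0.13 to 0.10 for Acat2, -0.17 to 0.022 for Hmgcs1, -0.18 to 0.13 for Mvk, -0.11 to 0.12 for Pmvk, -0.43 to 0.090 for Idi1, -0.082 to 0.11 for Fdft1, -0.090 to 0.055 for Lss, -0.27 to 0.052 for Acaca, -0.16 to 0.12 for Fasn, -0.13 to 0.024 for Fads1, -0.23 to 0.0054 for Srebf2 and -0.15 to 0.60 for Abcg1. The cause was not tested.

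Each member had at least 264 counts in every library; the lowest count was that of Abcg1, whose genotype SE of 0.538 was the widest of the set. The effect of depth on the calls was not tested.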
